A study of Homo sapiens with 6 samples.

Results

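Neurotrophin and GDNF family receptors were followed in A375, an established human melanoma cell line with mutant BRAF. The receptor genes were chosen by name and numbered 8 of the 57914 genes in the deposited table: NGFR, NTRK2, NTRK3, SORT1, RET, GFRA1, GFRA2 and GFRA3. The cells grew in DMEM with fetal calf serum, were stained with Aldefluor, a dye that reports aldehyde dehydrogenase (ALDH) activity, and were sorted. ALDH_High held the 5% of cells with the highest signal and ALDH_Low the 5% with the lowest, with 3 RNA sequencing libraries in each. Both groups came from this 1 line, and the labels give no other treatment. The labels do not say whether libraries of a group came from separate sorts, so p-values measure only the spread between these libraries.

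Neurotrophins, among them BDNF, NT-3 and NT-4, signal through the TRK receptor tyrosine kinases, with TRKB encoded by NTRK2 and TRKC, the receptor for NT-3, by NTRK3. All neurotrophins also bind p75NTR, encoded by NGFR, which lacks a kinase domain and pairs with sortilin (SORT1) to bind the unprocessed proneurotrophins. Ligands of the GDNF family bind GPI-anchored co-receptors (GFRA1 prefers GDNF, GFRA2 neurturin, GFRA3 artemin), and the pair then activates the kinase RET. Neural crest cells and their derivatives use both systems, and in melanoma NGFR is widely used as a marker of cells in a neural crest-like state.

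NTRK3 rose in ALDH_High, and no other of the 5 tested receptors passed. NGFR, the most abundant of them, was 1.52-fold lower in ALDH_High without passing, and SORT1 lay at nearly the same level in both groups. RET was counted in all 3 ALDH_High libraries and in 0 ALDH_Low libraries, at levels too low for the test. Among the ligands, a list chosen with earlier results of these data known, GDNF was 23.3-fold higher and BDNF 3.77-fold lower in ALDH_High. Of the 5 receptors with enough counts to be tested, 1 was higher and 0 were lower at an adjusted p below 0.05 (F-test of edgeR's quasi-likelihood fit, Benjamini-Hochberg over all genes). At an unadjusted p below 0.05, 1 was higher and 1 lower, beside 16.3% of all genes tested higher and 16% lower. The DESeq2 Wald test called 1 of the 8 lower, beside 8.08% of all genes, and limma on log2(TPM + 1) of all genes above 0 called 0 lower, beside 2.44%. Over all 17047 genes tested, 10.8% were higher and 9.83% lower at the adjusted threshold, so a single called receptor cannot be told apart from the background. The median log2 fold change of the 5 was 0.070, and that of all genes tested was -0.013. The samples are bulk RNA, in which fewer cells that express a gene and less of its RNA per cell cannot be told apart.

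RefSeq promoter entries (GRCh38.p14) matched 6 of the 8 receptors; NGFR and GFRA2 had none. The upstream letters of NTRK3, called higher, and RET, counted only in ALDH_High and not tested, are given with those of SORT1, whose level hardly differed. Only bases outside the annotated gene are printed, 5′ to 3′ on the gene's strand, and capitals mark the letters GCCNNNGGC, a core recognised by TFAP2 factors.
NTRK3 (minus strand, chr15:88256792-88256989): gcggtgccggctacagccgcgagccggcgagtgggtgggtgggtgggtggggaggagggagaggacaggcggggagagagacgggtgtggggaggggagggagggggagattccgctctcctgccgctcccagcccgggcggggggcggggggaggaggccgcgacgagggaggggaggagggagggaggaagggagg
RET (plus strand, chr10:43076819-43077063): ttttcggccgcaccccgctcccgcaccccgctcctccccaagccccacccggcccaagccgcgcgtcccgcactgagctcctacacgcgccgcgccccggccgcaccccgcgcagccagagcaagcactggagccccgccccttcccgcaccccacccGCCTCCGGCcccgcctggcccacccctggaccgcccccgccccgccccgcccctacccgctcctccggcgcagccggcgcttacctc
SORT1 (minus strand, chr1:109397919-109398168): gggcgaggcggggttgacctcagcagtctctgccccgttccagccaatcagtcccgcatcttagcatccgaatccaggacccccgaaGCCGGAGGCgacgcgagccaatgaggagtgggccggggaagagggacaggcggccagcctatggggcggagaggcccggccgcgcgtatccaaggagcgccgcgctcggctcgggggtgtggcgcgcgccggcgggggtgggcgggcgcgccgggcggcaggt

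TFAP2 and SOX factors act in the neural crest, and both families had members that differed in each direction here. TFAP2B had a log2 fold change of 4.45 and TFAP2A of -0.58, while SOX10 had 1.79 and SOX9 -1.79 (edgeR, all past an adjusted p of 0.05). TFAP2A, TFAP2B and SOX9 are named after their values were seen. The size of the TFAP2B difference (SE 0.64) rested on uneven counts in ALDH_Low, 92, 1 and 40, against 979, 649 and 1015 in ALDH_High. In the first entry of each gene, RET and SORT1 each held GCCNNNGGC 1 time in the 250 bases before the start, NTRK3 held it 0 times, and 19.8% of all 35116 promoter windows of that length held it. The letters ACAAAG, a core of SOX sites, were in 0 of these 3 windows and in 13.7% of all windows. The GC box GGGCGG occurred 2 times in NTRK3, 5 times in RET and 3 times in SORT1, and was present in 42.6% of all windows. Both strands were searched and overlapping matches counted. The windows were rich in G and C, at 73.2% for NTRK3, 79.6% for RET and 74.0% for SORT1. These matches describe letters and not bound sites.

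Total counts lay between 26692868 and 37830603 per library. ALDH_High library 1 stood apart from the other ALDH_High libraries on the second principal component (49.1 against -22 and -32.5, with 14.5% of the variance), so results are also given without it where they change. ALDH1A3, the ALDH gene named in the study's title, stood at 973 ± 253 CPM in ALDH_High against 389 ± 39.4 in ALDH_Low (SD, n = 3); CPM are counts scaled to the TMM-adjusted library size. Of 9 melanocytic markers, 7 exceeded 3 counts in some library, while MLANA and TYR did not, and their summed level was 671 to 843 CPM in ALDH_High and 212 to 234 CPM in ALDH_Low, mostly SOX10. Within that list MITF, the regulator of pigment cells, was lower (log2 fold change -0.92, edgeR adjusted p 0.00667). The melanosome gene PMEL had a log2 fold change of -0.31 (edgeR adjusted p 0.747), from 5 to 19 counts per library. PMEL shares exon bases with CDK2 on the opposite strand, which had 3159 to 4530 counts, and is uncertain. SOX10 (1.79, edgeR adjusted p 3.14e-05), S100B (4.28, edgeR adjusted p 9.03e-05) and S100A1 (4.75, edgeR adjusted p 4.71e-05) were higher. S100B and S100A1 are named after their values were seen. S100A1 shares exon bases with S100A13 on the opposite strand and is uncertain. The 8 Schwann cell markers, genes of another neural crest derivative that carries these receptors, summed to 325 to 386 CPM in ALDH_High and 45.6 to 71.2 CPM in ALDH_Low, mostly ERBB3, with 8 of 8 above 3 counts in some library. Of 8 neuronal markers, STMN2 alone stayed at or below 3 counts, and the sums were 437 to 583 and 546 to 605 CPM, mostly TUBB3. Epithelial markers summed to 379 to 682 CPM in ALDH_High and 1150 to 1740 CPM in ALDH_Low, mostly KRT18. White blood cell markers summed to 14.5 to 28.1 and 58 to 70.2 CPM, mostly CD68, with CD3E at or below 3 counts throughout. Fibroblast and endothelial markers summed to 11.7 to 12.2 and 15.6 to 19.6 CPM. The part of these differences in the receptor values was not tested.

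**Figure D1:**
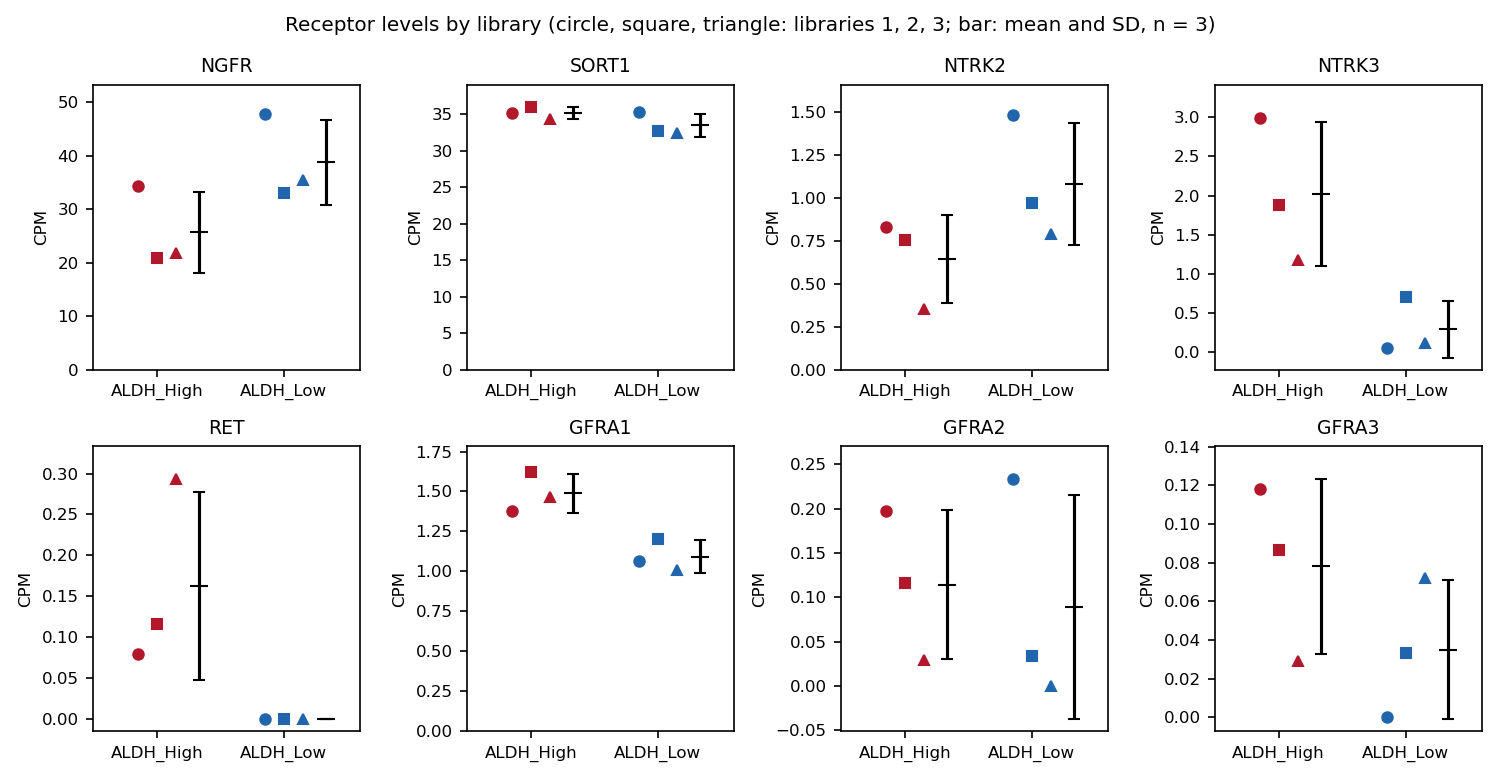
Level of each of the 8 receptor genes in CPM (vertical axis, a separate scale per panel) in the 3 ALDH_High (red) and 3 ALDH_Low (blue) libraries; circles, squares and triangles are libraries 1, 2 and 3, and the black bar is the mean with its SD. NTRK3 lies at or above 1.17 CPM in every ALDH_High library and at or below 0.703 CPM in every ALDH_Low library, while NGFR overlaps between the groups and SORT1 stays between 32.5 and 35.9 CPM.

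NTRK3 (ENSG00000140538, chromosome 15, 87859751 to 88256791, GRCh38) had 76, 65 and 40 counts in ALDH_High libraries 1, 2 and 3 and 2, 21 and 3 counts in ALDH_Low libraries 1, 2 and 3. In CPM these were 3.0, 1.88 and 1.17 in ALDH_High and 0.0519, 0.703 and 0.108 in ALDH_Low. All ALDH_High libraries lay above all ALDH_Low libraries, and ALDH_Low library 2 stood nearest to the ALDH_High group. The log2 fold change of NTRK3 was 2.83 (SE 0.73, 95% interval 1.21 to 4.44, edgeR adjusted p 0.0203), or 7.09-fold. An exact two-sided permutation test of the CPM values gave p = 0.1, the smallest that 3 against 3 libraries allow. Groups did not overlap in 2 of the 5 tested receptors (NTRK3 and GFRA1) and in 37.8% of all genes tested. Of the genes as low as NTRK3, with a mean CPM from 0.5 to below 3, 9.46% were called higher. The size of the NTRK3 difference rested on few counts in ALDH_Low, and without ALDH_Low library 2 the log2 fold change was 4.65 (edgeR adjusted p 0.00194). Without ALDH_High library 1, which had the most NTRK3, it was 2.45 (edgeR adjusted p 0.0483). Without ALDH_Low library 1 it was 2.29 (edgeR adjusted p 0.0557) and without ALDH_Low library 3 it was 2.46 (edgeR adjusted p 0.0946), so the call was lost in both. NTRK3-AS1 and MED28P6, which lie within the bounds of NTRK3 in GENCODE 44 without sharing exons with it, had 0 counts throughout.

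NTRK2 (ENSG00000148053, chromosome 9, 84668375 to 85095751) went the other way without passing. Its CPM values were 0.828, 0.753 and 0.352 in ALDH_High and 1.48, 0.970 and 0.791 in ALDH_Low, from 12 to 57 counts per library. The groups overlapped, since the highest ALDH_High value exceeded the lowest ALDH_Low value. The log2 fold change of NTRK2 was -0.76 (SE 0.42, 95% interval -1.70 to 0.17, edgeR adjusted p 0.247). TPM values are corrected for transcript length, so that genes can be set against each other within a library. The ratio of NTRK3 TPM to NTRK2 TPM was 5.91, 4.16 and 5.70 in ALDH_High and 0.0611, 1.20 and 0.248 in ALDH_Low. NTRK3 was thus above NTRK2 in 3 of 3 ALDH_High libraries and in 1 of 3 ALDH_Low libraries. The ratios did not overlap (exact two-sided permutation p = 0.1, n = 3 per group, the smallest possible). NTRK3 alone already separated the groups, so the ratio is not independent of that result.

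NGFR (ENSG00000064300, chromosome 17, 49495293 to 49515008) reached 34.3, 20.8 and 21.8 CPM in the ALDH_High group, in library order, against 47.9, 33 and 35.4 in ALDH_Low. ALDH_High library 1 lay above ALDH_Low library 2, and the other ALDH_High libraries lay below all ALDH_Low libraries. The log2 fold change of NGFR was -0.60 (SE 0.21, 95% interval -1.07 to -0.13 from the unadjusted test, edgeR adjusted p 0.0739). The exact permutation p of its CPM values, two-sided, was 0.2. Counts of NGFR ran from 719 to 1845 per library. Without ALDH_High library 1, NGFR passed as lower (log2 fold change -0.85, edgeR adjusted p 0.00750), in a fit that called 11.5% of genes lower. With the DESeq2 Wald test it passed too (-0.58, adjusted p 0.0418), where 8.08% of genes were lower. Without ALDH_Low library 1 the NGFR difference was -0.41 (edgeR adjusted p 0.270). Genes that share exon bases with NGFR on the opposite strand had at most 2 counts in any library.

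SORT1 (ENSG00000134243, chromosome 1, 109309568 to 109397918), a sorting receptor that also serves as the proneurotrophin partner of p75NTR, had 35.1, 35.9 and 34.4 CPM in ALDH_High and 35.3, 32.7 and 32.5 CPM in ALDH_Low. Its log2 fold change was 0.070 (SE 0.11, 95% interval -0.17 to 0.31, edgeR adjusted p 0.715). The groups overlapped, with ALDH_Low library 1 above 2 of the ALDH_High libraries, and SORT1 had the narrowest interval of the tested receptors. NGFR and SORT1 together held most of the RNA of the 8 receptors: NGFR took 59.5%, 47.8% and 50.9% of their summed TPM in ALDH_High and 69.9%, 63.0% and 65.8% in ALDH_Low. The ratio of NGFR TPM to SORT1 TPM was 1.41 ± 0.416 in ALDH_High and 2.22 ± 0.349 in ALDH_Low (SD), and the highest ALDH_High ratio, 1.88 in library 1, lay just under the lowest ALDH_Low ratio, 1.95 in library 2 (exact two-sided permutation p = 0.1, n = 3 per group).

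**Figure D2:**
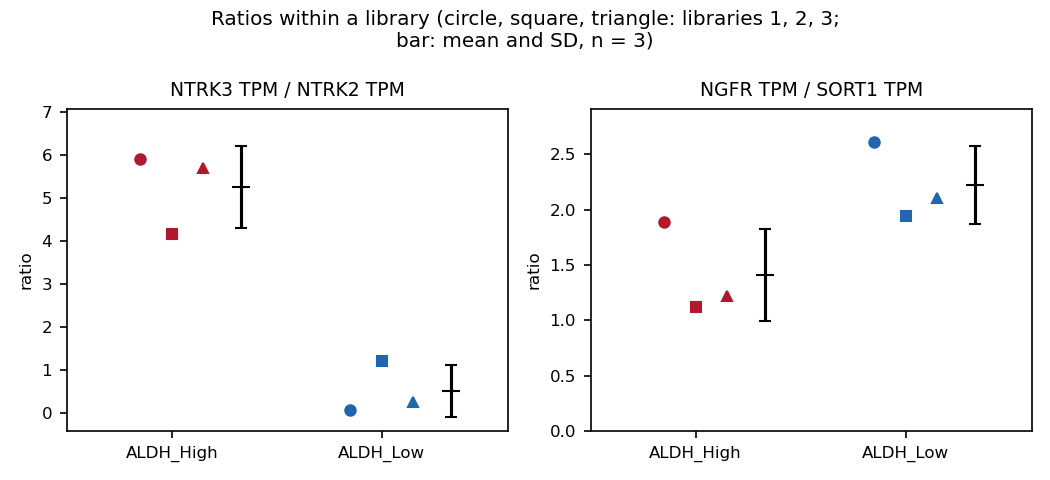
Ratios of TPM values within each library (vertical axes, no unit) for NTRK3 over NTRK2 and NGFR over SORT1; symbols are libraries 1, 2 and 3 and the black bar is the mean with its SD. The groups are apart in both panels, by a narrow gap for NGFR over SORT1 (1.88 against 1.95).

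RET (ENSG00000165731, chromosome 10, 43077064 to 43130351), the kinase of GDNF signalling, had 2, 4 and 10 counts in ALDH_High libraries 1, 2 and 3 and 0 in every ALDH_Low library. Summed over the group, the 16 counts in ALDH_High have an exact Poisson 95% interval of 9.15 to 26.0, and the same interval for 0 counts in ALDH_Low is 0 to 3.69. The exact 95% interval of the ratio began at 3.95. With ALDH_Low set at a floor of 3 counts over the group, the 16 counts put RET at least 5.46-fold higher in ALDH_High, a value that leaves out the counting error of the 16. Without molecular identifiers, such limits describe counting error alone. RET did not pass the filter on low counts. In the edgeR fit without that filter its adjusted p was 0.00513, in a fit that called 6.86% of 34665 genes higher, whereas limma on log2(TPM + 1) gave RET an adjusted p of 0.258. The DESeq2 Wald test gave RET an unadjusted p of 0.0135 and no adjusted p. For NTRK3 the unfiltered edgeR fit gave an adjusted p of 7.26e-09, against 0.0203 with the filter. The p-values of the unfiltered fit therefore cannot be set against those of the filtered fit. RET lay between 0.0364 and 0.196 TPM in ALDH_High, near the limit of detection.

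GFRA1 (ENSG00000151892, chromosome 10, 116056925 to 116276803), the co-receptor that binds GDNF, had 1.38, 1.62 and 1.47 CPM in ALDH_High and 1.06, 1.20 and 1.01 CPM in ALDH_Low. The groups did not overlap (exact two-sided permutation p = 0.1, n = 3 per group), yet the log2 fold change of GFRA1, 0.45 (SE 0.28, 95% interval -0.18 to 1.08), did not pass (edgeR adjusted p 0.317). GFRA1 had 28 to 56 counts per library, and its fitted difference was 1.36-fold. A long non-coding RNA that shares exon bases with GFRA1 on the opposite strand was not analysed here. GFRA2 (ENSG00000168546) had 5, 4 and 1 counts in ALDH_High and 9, 1 and 0 in ALDH_Low, and GFRA3 (ENSG00000146013, chromosome 5, 138252380 to 138274621) had 3, 3 and 1 and 0, 1 and 2. Both stayed under the filter. The ratio of ALDH_High to ALDH_Low was 1.02 for GFRA2 (counting interval 0.382 to 2.74) and 2.39 for GFRA3 (0.545 to 14.3), so no direction could be read for either.

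The order of levels, in TPM, began with NGFR and then SORT1 in both groups, with no overlap between them. In ALDH_Low, NGFR had 15.4 ± 3.43 TPM and SORT1 6.91 ± 0.496, followed by GFRA1 at 0.384 ± 0.0478, NTRK2 at 0.235 ± 0.0805 and NTRK3 at 0.107 ± 0.133 (SD, n = 3). In ALDH_High, NGFR had 10.4 ± 2.33 and SORT1 7.52 ± 0.490, followed by NTRK3 at 0.738 ± 0.288, GFRA1 at 0.553 ± 0.0703 and NTRK2 at 0.143 ± 0.0539. NTRK3 and GFRA1 overlapped in ALDH_High and were not in a settled order, while GFRA1 lay clear of NTRK2 in both groups. From NTRK2 downwards, neighbours in the order overlapped in both groups. In the authors' deposited table, log2 coefficients of the high and the low group differ by -0.58 for NGFR, -0.74 for NTRK2, 2.84 for NTRK3, 0.47 for GFRA1, 4.84 for RET and 0.091 for SORT1, each coefficient being set against a further group not analysed here.

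Among the ligands of these receptors, GDNF was higher and BDNF lower in ALDH_High, and both passed under 16 of 16 alternatives. GDNF (ENSG00000168621, chromosome 5, 37812677 to 37840041) had 13.4, 12.8 and 13.0 CPM in ALDH_High and 0.441, 0.435 and 0.827 CPM in ALDH_Low. The groups were far apart, with a log2 fold change for GDNF of 4.54 (SE 0.27, edgeR adjusted p 5.94e-06). GDNF-AS1, which shares exon bases with GDNF on the opposite strand, had 15, 67 and 42 counts in ALDH_High and 10, 6 and 7 in ALDH_Low, against 341 to 445 and 13 to 23 counts of GDNF itself. The library kit kept strand, but whether counting used it is not given in the sources used here, so reads of this pair are uncertain. NRTN, which encodes neurturin, the ligand preferred by GFRA2, was also higher, at 0.656 ± 0.368 CPM against 0.141 ± 0.0374 (SD, n = 3). Its difference was 2.13 on the log2 scale (SE 0.54, edgeR adjusted p 0.0196). The NRTN call was lost without ALDH_High library 1 (log2 fold change 1.64, edgeR adjusted p 0.0548), without ALDH_Low library 2 (2.09, adjusted p 0.0771) and without ALDH_Low library 3 (1.99, adjusted p 0.0868). Counting every alternative that included it, NRTN passed under 9 of 13, with log2 fold changes from 0.81 to 2.46. ARTN, for artemin, had a log2 fold change of 0.33 (edgeR adjusted p 0.634) and PSPN, for persephin, one of 0.22 (edgeR adjusted p 0.763). PSPN shares exon bases with ALKBH7 and is uncertain, and its difference was -0.36 without ALDH_High library 1.

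BDNF (ENSG00000176697, chromosome 11, 27654893 to 27722058), the ligand of TRKB and p75NTR, fell. It had 3.94, 10.1 and 8.82 CPM in ALDH_High and 24.0, 29.7 and 33 CPM in ALDH_Low, with ALDH_High library 1 the lowest of all. The log2 fold change of BDNF was -1.91 (SE 0.29, edgeR adjusted p 0.00117), and without that library it was -1.59 (edgeR adjusted p 0.000259). BDNF-AS, on the opposite strand, had 2 to 7 counts per library beside 100 to 927 for BDNF. NTF3, the gene of the TRKC ligand NT-3, had 0 counts in every library, and NTF4 had at most 4. GDF15, a distant GDNF family relative with its own receptor GFRAL, had a log2 fold change of 0.92 (SE 0.49, edgeR adjusted p 0.237), which became 1.73 without ALDH_Low library 1 (adjusted p 0.0282). With that fit included, GDF15 passed under 3 of 16 alternatives. Of the 9 ligand genes, 6 were tested, 2 were higher, 1 was lower and 3 did not pass. Over all genes tested, 10.8% were higher and 9.83% lower.

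**Figure D3:**
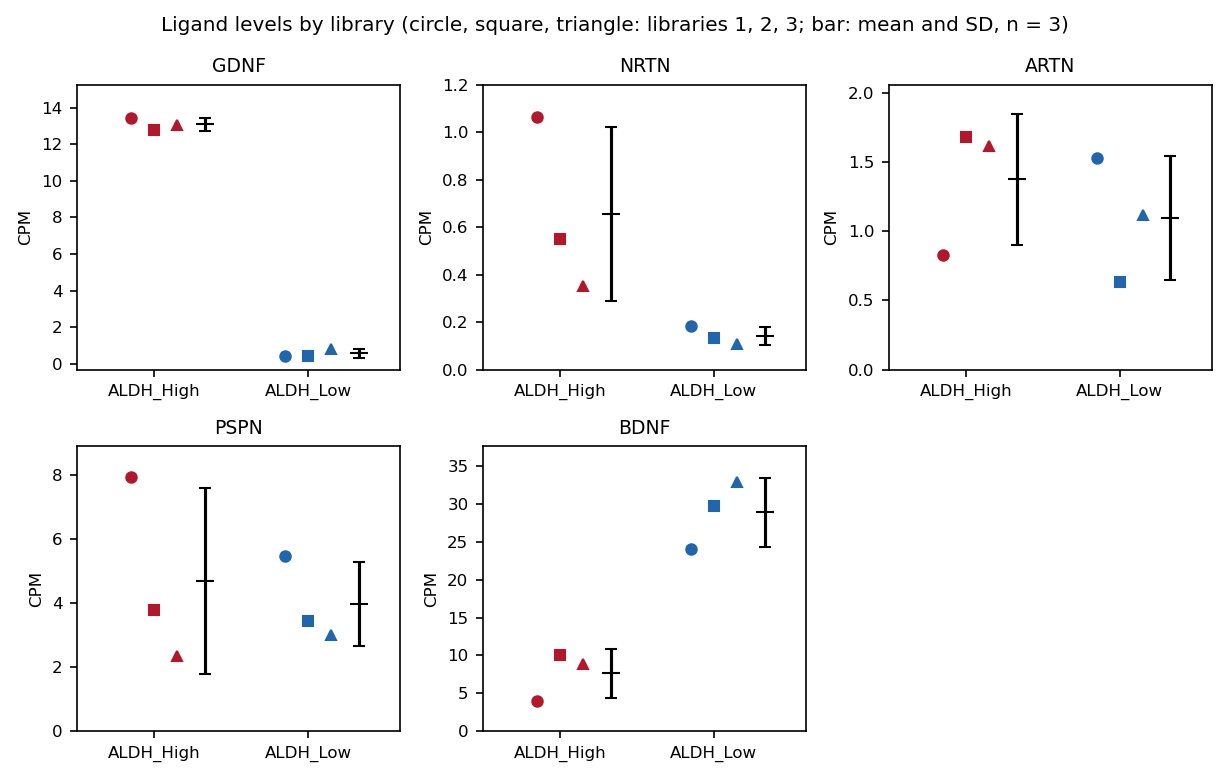
Level of 5 ligand genes in CPM (vertical axis, a separate scale per panel) in ALDH_High (red) and ALDH_Low (blue); symbols are libraries 1, 2 and 3 and the black bar is the mean with its SD. GDNF lies near 13.1 CPM in ALDH_High against 0.568 CPM in ALDH_Low, BDNF runs the other way, and ARTN and PSPN overlap.

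**Figure D4:**
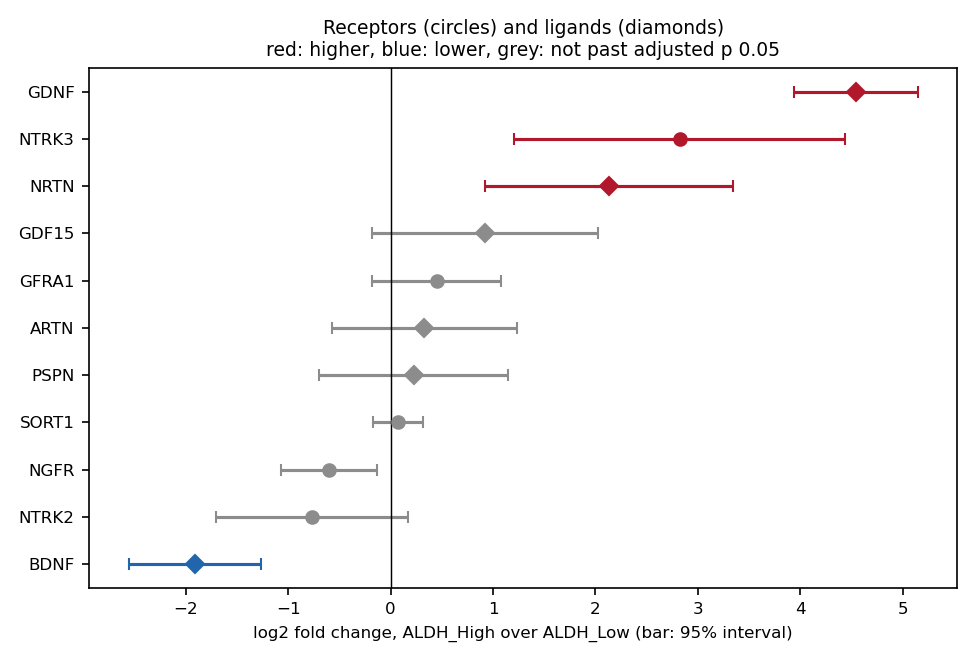
Log2 fold change of ALDH_High over ALDH_Low (horizontal axis) with 95% intervals for the 5 tested receptors (circles) and the 6 tested ligands (diamonds), coloured by whether the adjusted p passed 0.05. GDNF (4.54), NTRK3 (2.83) and NRTN (2.13) lie on the higher side and BDNF (-1.91) on the lower side; the interval of SORT1 is the narrowest.

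Among 14 other receptors and co-receptors of these families, 11 were tested, 6 were higher and 1 was lower (median log2 fold change 0.91). This is set beside 10.8% higher and 9.83% lower over all genes tested. TNFRSF19, a relative of p75NTR, rose from 3.32 ± 1.44 to 30.8 ± 11.3 CPM (SD, n = 3; log2 fold change 3.21, edgeR adjusted p 0.000140). SDC3, a syndecan that can bind GDNF, had a log2 fold change of 1.35 (edgeR adjusted p 0.000878), and GAS1, a relative of the GFRA co-receptors, of 2.19 (edgeR adjusted p 0.00103). The remaining calls in that list, named after their values were seen, were SORCS1, LINGO1 and LRIG1 as higher and NCAM1, an alternative GDNF receptor, as lower. LRIG1, with 167 to 424 counts, shares exon bases with SLC25A26 on the opposite strand, which had 523 to 745 counts, and is uncertain. GFRA4, GFRAL and SORCS3 had at most 6 counts.

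In the list for proneurotrophin processing and receptor cleavage, 17 of 19 genes were tested, 3 were higher and 2 lower (median log2 fold change 0.17). PLAT, the plasminogen activator that starts extracellular proBDNF cleavage, was 4.39-fold higher (log2 fold change 2.14, edgeR adjusted p 2.28e-05). The convertase PCSK2 was also higher (2.62, edgeR adjusted p 0.00276), a call lost with limma on log2(TPM + 1) of all genes above 0 (0.85, adjusted p 0.0988). ADAM10, named after its values were seen, was the third higher gene, and PCSK1, named likewise, was called lower. Of 14 p75NTR adaptors, 14 were tested, 2 were higher and 3 lower (median 0.012). For both lists, the shares over all genes tested were 10.8% higher and 9.83% lower. BEX1 was lower (-3.44, edgeR adjusted p 0.000168), SALL2 higher (2.51, edgeR adjusted p 0.00158) and NDN lower (-0.68, edgeR adjusted p 0.0110), with the NDN call lost without ALDH_High library 2 (-0.63, adjusted p 0.0554) or library 3 (-0.57, adjusted p 0.0504).

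Of 27 TRK and RET adaptors, 25 were tested, 9 were higher and 1 was lower (median log2 fold change 0.28). The edgeR shares over all genes tested were 10.8% higher and 9.83% lower. GRB10, an adaptor that binds activated RET, had 22.9, 23.0 and 23.3 CPM in ALDH_High and 5.73, 6.62 and 6.08 CPM in ALDH_Low (log2 fold change 1.91, edgeR adjusted p 1.67e-05). IRS2 (1.06, edgeR adjusted p 0.00190) and SHC2 (2.92, edgeR adjusted p 0.00386) were also higher, with the IRS2 call lost in that limma fit (1.06, adjusted p 0.053). Of 14 sortilin trafficking genes and ligands, 13 were tested, 1 was higher and 0 lower (median -0.030). At an unadjusted p below 0.05, edgeR had 5 higher and 0 lower in this list, beside 16.3% and 16% of all genes. At the adjusted threshold DESeq2 called 3 and 0, beside 10.1% and 8.08% of all genes, and limma on log2(TPM + 1) of all genes above 0 called 2 and 0, beside 3.31% and 2.44%. The called gene was NTS, encoding neurotensin, a sortilin ligand (2.49, edgeR adjusted p 0.00811). It rested on 16, 34 and 22 counts in ALDH_High and 8, 4 and 1 in ALDH_Low.

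Of 17 MAPK and ETS output genes, which RET, TRK and mutant BRAF all feed, 6 were higher and 2 lower (median log2 fold change 0.33). The feedback inhibitors SPRY4 (2.74, edgeR adjusted p 4.29e-06) and SPRY2 (1.43, edgeR adjusted p 3.94e-05) were higher and the phosphatase DUSP5 lower (-1.29, edgeR adjusted p 0.00232). Of 13 neural crest regulators, 10 were tested, 5 were higher and 2 lower (median 1.42). SOX10 (1.79, edgeR adjusted p 3.14e-05), EDNRB, the endothelin receptor of neural crest cells (3.08, edgeR adjusted p 3.60e-05), and FOXD3 (3.53, edgeR adjusted p 0.000109) were the genes with the smallest p. SOX10 shares exon bases with POLR2F on the opposite strand, which had 4217 to 4974 counts and is uncertain with it. FOXD3 shares exon bases with FOXD3-AS1 on the opposite strand, which had 39, 52 and 50 counts in ALDH_High and 20, 6 and 18 in ALDH_Low, against 14, 7 and 18 of FOXD3 itself in ALDH_Low, so FOXD3 is uncertain too. EDNRB shares exon bases with a non-coding gene on its own strand, which had 48 to 60 counts in every library. Each of these counts is read beside the 20.6% of all genes tested that were called in either direction, 10.8% higher and 9.83% lower.

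**Figure D5:**
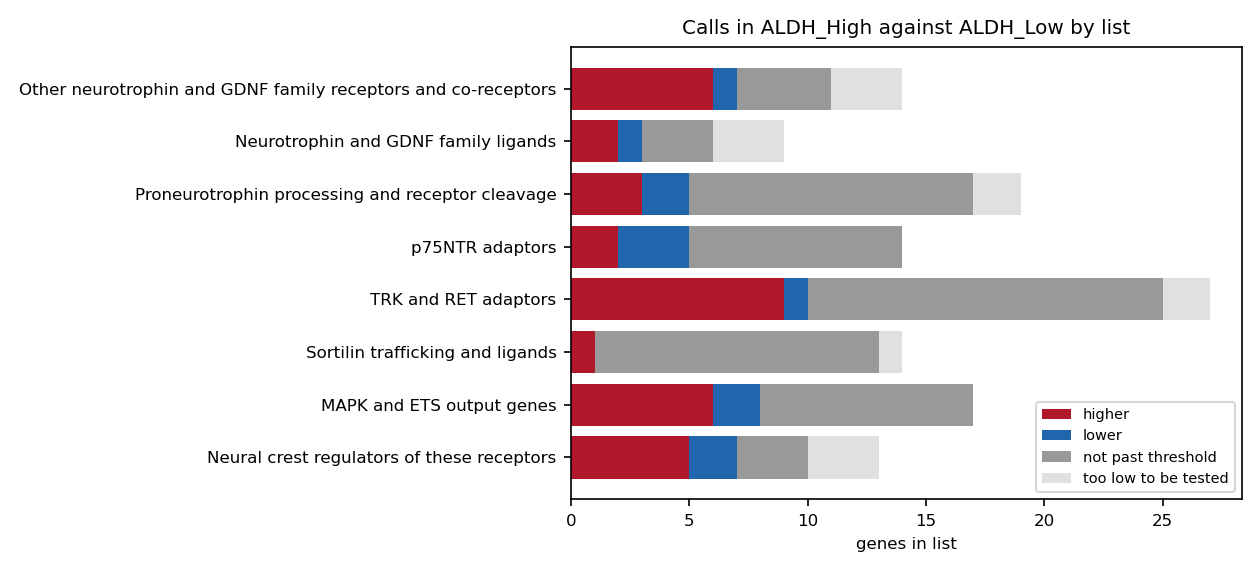
Number of genes per list (horizontal axis) that were higher in ALDH_High (red), lower (blue), tested without passing (dark grey) or too low to be tested (light grey), for the 8 lists of related genes. Higher genes outnumber lower genes in the other receptors (6 against 1) and in the TRK and RET adaptors (9 against 1), while the sortilin list holds 1 called gene. Of all genes tested, 10.8% were higher and 9.83% lower.

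NTRK3's profile over the 6 libraries was set against those of 14040 other genes with a name and a mean of at least 1 CPM, by the root mean square difference between log2 CPM values, each profile centred on its mean. RASL10B was nearest (0.719 log2 units; log2 fold change 3.28) and IL16 next (0.729; log2 fold change 2.68).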

How the data were processed

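RNA was measured in 6 libraries of sorted A375 cells, made with a stranded mRNA kit per the labels' protocols. The authors deposited estimated counts rounded to whole numbers, TPM values and log2 coefficients of a model with further groups, per the file headers and the values. Between 133 and 177 genes per library had a count of 0 beside a TPM above 0. The counts were therefore treated as rounded estimated counts, which this pattern alone does not establish. The submitters' processing notes name FastQC 0.11.3, STAR 2.5.1b, HTSeq 0.6.1, DESeq2 and the build GRCh38, without saying what each was used for, and the annotation release and the use of strand are not given in the sources used here.

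The counts were tested with the quasi-likelihood F-test of edgeR 4.0.16 in R 4.3.3 (filterByExpr by group, TMM, all 6 libraries, no covariate, two-sided), with Benjamini-Hochberg adjustment over the 17047 genes tested and a threshold of 0.05. Genes named are the 8 receptors, tested ligands, the 3 genes with the smallest p among those called in each related list, genes overlapping a receptor, reference genes and the 2 nearest profiles of a called receptor, and exceptions are marked as such. A few genes that this rule or the lists take in are counted in their lists and not reported here by name. The receptors and lists were chosen with earlier results of these data known. The procedure was tested on simulated data. Alternatives were other normalizations and filters, a replicate block, DESeq2 1.42.0, limma 3.58.1 on log2(TPM + pseudocount) and leaving out each library. Positions are from GENCODE 44 and promoter letters from RefSeq (GRCh38.p14).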

Additional observations from a re-analysis of the deposited data

How the results depend on the processing

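Among the receptors, the number called higher was 2 with no filter on low counts (NTRK3 and RET), and 0 with at least 10 counts in every library and with limma on log2(TPM + 1) or log2(TPM + 0.1), where NTRK3 was left out by the filter in all but the limma fit on all genes (0.64, adjusted p 0.0764). The number called lower was 1, for NGFR, with no filter (-0.59, adjusted p 0.00175) and with DESeq2 (-0.58, adjusted p 0.0418). Leaving out 1 library gave 0 to 1 receptors higher, 0 to 1 lower, log2 fold changes of -0.85 to -0.41 for NGFR and 2.29 to 4.65 for NTRK3, and 2488 to 4221 genes called in all. The limma fit on all genes called 2006 of 34849 genes, against 3513 of 17047 in the main fit. The cause of these differences between settings was not tested. NTRK2, GFRA1 and SORT1 passed under 0 of 14, 14 and 16 alternatives, and GDNF and BDNF under 16 of 16. PSPN reversed to -0.36 without ALDH_High library 1 (range over left-out libraries -0.36 to 0.56). An edgeR fit with robust dispersions, chosen after seeing the data, gave 2.83 for NTRK3 (adjusted p 0.0239) and -0.60 for NGFR (adjusted p 0.0744).

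With the replicate number as a block, NGFR was -0.61 (adjusted p 0.00694) and 1 receptor was called lower, in a fit that called 3748 genes. The labels do not say that equal numbers mark a shared sort, and deviations of same-numbered libraries from their group means correlated at 0.15, 0.076 and 0.108, short of pairing them. Low counts limit NTRK2, NTRK3, GFRA1 and above all RET, GFRA2 and GFRA3. They also limit NRTN, PCSK2, SHC2 and NTS, with at most 10 counts per ALDH_Low library, and BEX1, with at most 8 per ALDH_High library.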
